A study of Mus musculus with 62 samples.

Results

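Disomes, the footprints of 2 ribosomes stacked against each other on an mRNA, were compared with ordinary single-ribosome footprints in the hearts of mice with and without RPL3L. The disome libraries made up 16 of the 62 samples of the series: 4 WT mice and 4 KO mice, each represented by 2 columns of counts that carried the same mouse number and were added together. The 8 heart Ribo-seq libraries, 4 per genotype, gave the single-ribosome (monosome) level of the same genes. WT mice were Rpl3l+/+ and KO mice were Rpl3l-/-, which had lost exon 2 of Rpl3l in every cell of the body through CRISPR-Cas9 editing of zygotes, and all hearts came from male mice of 10 weeks of age. The zygotes were of the C57BL/6J strain. Disome libraries were made from RNA fragments of 50 to 80 nt and Ribo-seq libraries from fragments of 17 to 34 nt. Of 10476 genes in the count table, 632 had a mean disome count of at least 10 over the 8 mice, and these were the genes compared. Sf1, Ets2 and Ackr3 lay just inside that limit with a mean count of 10, and Fbxo3, Trp53inp2 and Yme1l1 lay just outside with 9.88.

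A ribosome that stops or slows on a coding sequence can be run into by the ribosome behind it, and the collided pair protects a longer stretch of mRNA from nuclease than a single ribosome does. Cells read such pairs through sensors that split the ribosomes and discard the unfinished protein, or that start stress signalling. RPL3L is a form of the large-subunit protein RPL3 that is made in heart and skeletal muscle, where it takes the place of RPL3 in part of the ribosomes. The quantity followed here was the disome to Ribo-seq ratio of a gene, its normalised disome level divided by its normalised Ribo-seq level in the heart of the same number, with levels as CPM (counts scaled to a common library total). A ratio of 1 means that the gene took the same share of both libraries, so the ratio ranks genes against each other and does not give the fraction of ribosomes that had collided.

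The knockout was made with a pair of guide RNAs, shown because they define the KO group.
Rpl3l guide 1: ttgctccaagagcatagccc
Rpl3l guide 2: actacctacggccagtgcca
Neither sequence matched an annotated Rpl3l transcript on either strand, and exon 2, at chr17:24728317-24728509 on the plus strand of GRCm38, holds 193 coding bases, which is not a whole number of codons. Rpl3l (ENSMUST00000170239.8) had 926, 675, 632 and 499 Ribo-seq counts in WT hearts 1 to 4 and 23, 14, 19 and 22 in KO hearts 1 to 4. The monosome level was therefore lower in every KO heart, by 4.69 on the log2 scale (log2 difference -4.69, adjusted p = 5.513e-07, edgeR quasi-likelihood test).

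The disomes of Rpl3l did not separate the genotypes in the same way. In the second column of each mouse, Rpl3l had 10, 6, 12 and 10 disome counts in WT mice and 0, 2, 1 and 2 in KO mice, with no overlap. In the first columns it had 75, 2, 11 and 3 counts in WT mice and 0, 2, 5 and 12 in KO mice. The first column labelled KO 4 thus held 12 Rpl3l counts, or 1298 CPM for its depth. Among WT columns only the first column of WT 1 held more (1680 CPM). The first column of KO 3, on 5 counts (447 CPM), lay above the first columns of WT 2 (218 CPM) and WT 4 (333 CPM). These levels lay in the WT range in columns labelled KO, and they rest on few counts.

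The same columns stood apart in other genes. A set of 126 genes was defined whose Ribo-seq level in control C2C12 cells, a mouse myoblast line profiled in the same series, was at least 20 times the highest level in any heart Ribo-seq library and at least 20 CPM in each C2C12 library. These myoblast-high genes held 5.109% of the counts in the first column of WT 1, close to the 5.82 to 6.26% in C2C12 Ribo-seq libraries. They held 0.648 to 3.22% in the other first columns, where the highest share was that of the column labelled KO 4. The shares were 0.0735 to 1.11% in the second columns and 0.0775 to 0.102% in heart Ribo-seq. Rpl3l itself stood at 2601 to 2725 CPM in Ribo-seq of C2C12 cells overexpressing RPL3L, which belong to the same series. Spp1, a secreted phosphoprotein, had 179 counts in the first column of WT 1 and 1 in the second, and Lgals3, a galectin, had 113 and 0. Over the 632 genes the columns of WT 1 differed by 11.5 times the variance that sampling alone gives (chi-square per degree of freedom, Pearson r of log2 counts 0.511), against 0.8 to 1.74 and r of 0.783 to 0.92 in the other 7 mice. Results below are for the summed columns unless the second columns are named, and second-column values are given for the lists and for the genes the results turn on. What put these counts in the first columns was not tested.

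**Figure D1:**
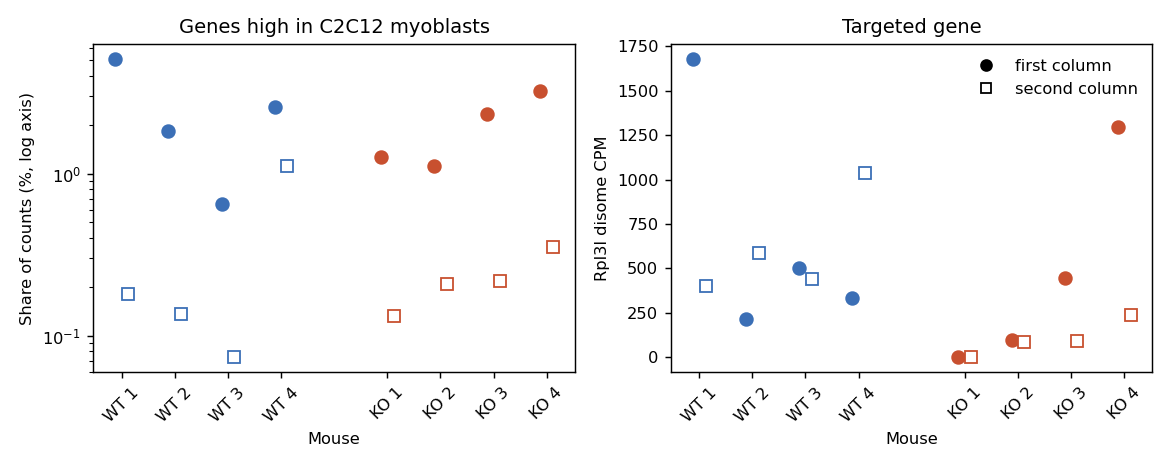
The left panel plots the share of disome counts that fell in the 126 myoblast-high genes (percent, log axis) and the right panel the Rpl3l disome level (CPM) for each mouse, with filled circles for the first and open squares for the second column. The first column of WT 1 reached 5.109% and the first column labelled KO 4 reached 1298 Rpl3l CPM.

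Depth was low. Total disome counts per mouse, over all transcripts, ran from 40786 to 149783 in WT mice and from 39016 to 175747 in KO mice, against 1873813 to 3192090 and 1606700 to 2322481 for Ribo-seq. The geometric mean total was 73098 in WT and 75090 in KO mice, a log2 difference of 0.04 (SD 0.95 and 0.99, n = 4 each), and an exact permutation test over the mice gave p = 0.943, where the smallest p it allows is 0.0286. The total reflects how each library was made and sequenced as well as how many disomes a heart held.

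No gene differed in its disome to Ribo-seq ratio between KO and WT hearts past the threshold (edgeR quasi-likelihood test of the genotype by assay interaction, Benjamini-Hochberg adjusted p under 0.05). The share of genes called was 0 of 632, or 0.0%, the smallest adjusted p was 0.257, and the second columns alone gave 0 of 293 with a smallest adjusted p of 0.482 and 16 (5.46%) at an unadjusted p under 0.05. With an unadjusted p under 0.05 there were 54 genes, 8.54% of those tested, 27 higher and 27 lower in KO. DESeq2's Wald test on the same counts called 9 genes, of which Cluh, Nqo2 and Ndufb2 were higher and Gnas, Hist1h2bc, Sf1, Fscn1, Hnrnpl and Sfr1 lower in KO hearts. The 95% interval of the difference lay within a 2-fold change in either direction for 245 of the 632 genes, and for 45 of the 54 genes with a mean disome count of at least 100. For the remaining genes a 2-fold change was not excluded by these libraries. The median standard error was 0.36 on the log2 scale over all genes and 0.24 over those 54.

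The ratio of a gene in WT hearts and its ratio in KO hearts lay close together across a wide range. From the 10th to the 90th percentile the ratio ran from 0.589 to 2.98 in WT and from 0.607 to 2.94 in KO hearts, with medians of 1.20 and 1.23. Across genes the mean log2 ratios of the genotypes had a Pearson r of 0.91 (Spearman rho 0.853, 632 genes), and 0.897 in the second columns. These correlations are descriptions, since genes of a library share its depth and composition.

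**Figure D2:**
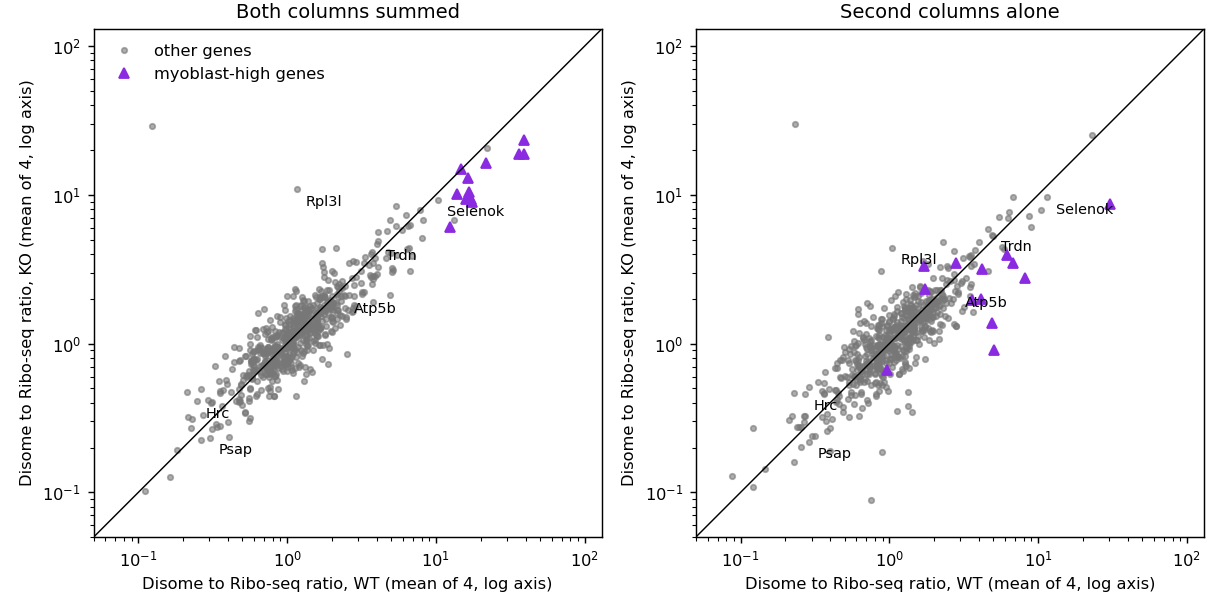
Each point is a gene at its mean disome to Ribo-seq ratio in 4 WT hearts (x, log axis) and 4 KO hearts (y, log axis), for summed columns on the left and second columns alone on the right, with the line of equality and with genes at 0 in either genotype left out. Most genes lie along the line, and the 13 myoblast-high genes among those tested (triangles) sit at the top right of the left panel, with a median ratio of 17.1 in WT and 13.0 in KO hearts, against 4.17 and 2.78 in the second columns. The lone point at the upper left of each panel is Scgb3a1.

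The genes at the ends of that range were chosen after their values were seen, as the 6 highest and 6 lowest of 148 genes whose second columns averaged 20 or more counts. In those columns Selenok, an endoplasmic reticulum selenoprotein, had the highest ratio, at 11.5 ± 1.86 in WT and 9.61 ± 2.04 in KO hearts (SD, n = 4). With summed columns its log2 difference between genotypes was -0.09 (SE 0.29, adjusted p = 0.933, edgeR). Trdn encodes triadin, which ties the calcium store of the sarcoplasmic reticulum to its release channel, and its ratio was 4.86 ± 1.44 in WT and 5.38 ± 1.06 in KO hearts. Washc1, Fmc1, Rpl10 and Ppia completed the top 6, with mean ratios of 3.99 to 10.5 in WT hearts. Rpl10 has many near-identical copies in the genome, and since reads with several matches were counted, its value is uncertain. At the other end stood Psap, the precursor of the lysosomal saposins, at 0.288 ± 0.0525 in WT and 0.219 ± 0.0492 in KO hearts, and Clu, which encodes the secreted chaperone clusterin, at 0.266 ± 0.0612 and 0.299 ± 0.067. Hrc, a calcium-binding protein of the sarcoplasmic reticulum, was also low, at 0.27 ± 0.0414 in WT and 0.456 ± 0.214 in KO hearts. The α-globin genes Hba-a1 and Hba-a2, which share nearly all of their sequence, lay at 0.364 and 0.35 in WT and at 0.459 and 0.478 in KO hearts.

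The 5 genes with the highest mean disome level, among the plus-strand genes that the table holds, were Atp5b, Atp5a1, Myl3, Myl2 and Hadhb. Atp5b, the catalytic β subunit of the ATP synthase, led with disome levels of 21980, 39240, 35510 and 31460 CPM in WT mice 1 to 4 and 29860, 28410, 29240 and 31520 CPM in KO mice 1 to 4. These disome levels overlapped between genotypes, and the lowest value was that of WT 1. The Atp5b ratio was 2.46 ± 0.487 in WT and 2.07 ± 0.0863 in KO hearts, a log2 difference of -0.25 (95% interval -0.65 to 0.14, adjusted p = 0.673). With summed columns the ratios overlapped only through WT 1 (1.89). In the second columns every KO heart (2.20 to 2.37) lay below every WT heart (2.46 to 3.11). How many of all genes did so in those columns was not counted. The difference there was -0.29 (SE 0.14, adjusted p = 0.597), and without WT 1 it was -0.38 (adjusted p = 0.594). Atp5a1, the α subunit, had ratios of 1.64 ± 0.216 and 1.66 ± 0.149, with a 95% interval of -0.34 to 0.35 for the log2 difference. Hadhb, the β subunit of the mitochondrial trifunctional protein, had 2.20 ± 0.342 and 2.38 ± 0.307, with an interval of -0.29 to 0.51. For these 3 genes a 2-fold change in the ratio in either direction lay outside the interval.

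Genes of cardiac muscle contraction were examined next, since the study singled out 15 contraction and cardiomyopathy genes, in part on these same samples, so that their direction here is not independent evidence. Of the 15, 8 were in the table and all 8 were tested. None passed the threshold, and 1 of the 8 was higher at an unadjusted p under 0.05, against 4.27% of all genes in that direction. Their median log2 difference was 0.28, against -0.03 over all genes tested. In the second columns their median was 0.13, against -0.01. Myl2, the ventricular regulatory myosin light chain, had ratios of 1.495, 1.77, 2.06 and 1.72 in WT hearts and 2.15, 2.79, 2.00 and 1.43 in KO hearts. KO hearts held both the highest and the lowest Myl2 value, and the log2 difference was 0.22 (95% interval -0.20 to 0.63, adjusted p = 0.736), and 0.10 in the second columns. Myl3, the ventricular essential light chain, had 1.35, 1.68, 2.34 and 1.76 in WT and 1.92, 1.78, 2.04 and 1.52 in KO hearts, so that all KO values fell within the WT range. Its difference was 0.0077 with summed and -0.044 with second columns. Casq2, calsequestrin, which stores calcium in the sarcoplasmic reticulum, was the gene of the 8 with the unadjusted p under 0.05. Its ratio was 0.732, 1.00, 1.31 and 0.878 in WT and 1.38, 2.13, 1.32 and 1.13 in KO hearts, with 1 KO heart inside the WT range. The Casq2 difference was 0.59 (SE 0.25, adjusted p = 0.555), and 0.51 (SE 0.16, adjusted p = 0.491) in the second columns.

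The other contraction genes overlapped between genotypes as well. Tnnt2, cardiac troponin T, had a ratio of 1.21 ± 0.188 in WT and 1.31 ± 0.279 in KO hearts, and Tnnc1, cardiac troponin C, had 0.88 ± 0.33 and 1.20 ± 0.367. Tcap, the titin cap of the Z-disc, had 1.05 ± 0.354 and 1.43 ± 0.317. Myl4, the atrial light chain, had 0.579 ± 0.19 and 0.754 ± 0.329. Mybpc3, cardiac myosin-binding protein C, was the member with a negative difference, -0.22 (95% interval -0.71 to 0.27), at 1.09 ± 0.271 in WT and 0.928 ± 0.0875 in KO hearts. In the second columns Tnnt2 differed by 0.048, Tnnc1 by 0.28, Tcap by 0.16, Myl4 by 0.34 and Mybpc3 by -0.31, each lower than with summed columns. Among 11 tested genes of a wider contraction list the median difference was -0.06, from -0.37 to 0.77. In the second columns it was -0.11, with 1 of 10 genes positive, against 145 of all 293 genes tested there. In that list the genes with summed counts of at least 100 ran from Cryab, a small heat shock protein that protects desmin filaments, at -0.27 (-0.36 in the second columns) to Myom2, an M-band protein, at 0.11 (-0.0044 in the second columns).

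**Figure D3:**
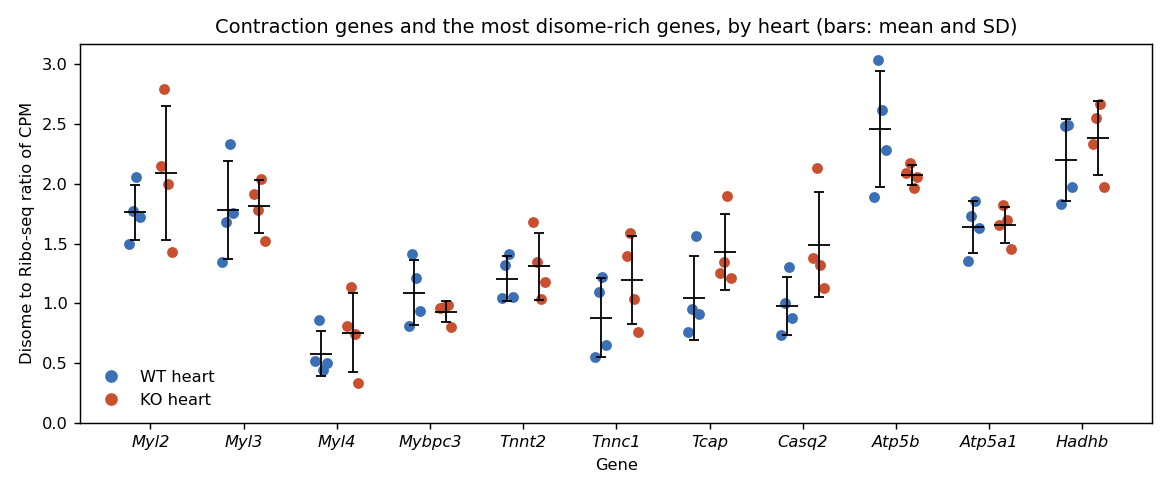
Disome to Ribo-seq ratio (linear axis) of the 8 tested contraction genes and of Atp5b, Atp5a1 and Hadhb in each of 4 WT and 4 KO hearts, with the mean and SD of each genotype. The genotypes overlap in all 11 genes with these summed columns, and WT 1, the mouse with the myoblast-high column, gives the lowest WT value in each of them but Myl4. For Atp5b the overlap comes from WT 1 alone.

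Calcium handling genes lay on the positive side without passing the test. All 6 tested had a positive log2 difference, from 0.21 to 0.88 with a median of 0.37, where 303 of all 632 genes were positive. At an unadjusted p under 0.05 there was 1 of the 6, against 4.27% of all genes in that direction. For the 6 genes the median difference was 0.22 in disomes alone and -0.15 in Ribo-seq alone. In the second columns 5 were tested, with a median of 0.25. Pln, phospholamban, the inhibitor of the calcium pump, had a ratio of 1.58 ± 0.228 in WT and 1.87 ± 0.462 in KO hearts (log2 difference 0.22, SE 0.23, and 0.17 in the second columns). Trdn, described above, differed by 0.23 (SE 0.29), and by 0.12 in the second columns. The atrial markers had a median of 0.45 over 5 tested genes and of 0.41 over 4 in the second columns. For the 5 genes the median difference was 0.31 in disomes alone and -0.10 in Ribo-seq alone. The summed disome level of the atrial markers was 7286 to 13690 CPM in WT and 8518 to 20760 CPM in KO mice. In the second columns that level was 8081 to 19140 CPM in WT and 10250 to 22270 CPM in KO mice. Nppa, the atrial natriuretic peptide, had ratios of 1.66, 1.68, 1.30 and 0.831 in WT and 1.62, 2.74, 1.56 and 0.782 in KO hearts, which overlap, and differed by 0.29 with summed and 0.11 with second columns.

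The lists of energy metabolism genes had medians near that of all genes. The medians were 0.08 for 12 complex I genes, 0.09 for 4 genes of complexes II and III, -0.00058 for 5 of complex IV, -0.14 for 3 of complex V, 0.11 for 10 of fatty acid oxidation and 0.04 for 10 of the tricarboxylic acid cycle and pyruvate entry. By edgeR none of these genes passed the threshold in either direction. In the second columns the medians of the 6 lists were 0.04, 0.03, -0.07, -0.04, 0.04 and -0.06. Single genes lay further out, and the 4 that follow were chosen after their values were seen, as those with an unadjusted p under 0.05. Mpc1 and Mpc2, which together form the mitochondrial pyruvate carrier, were the 2 of 10 genes of their list with every KO heart above every WT heart (2.37% of all genes). The Mpc1 ratio was 0.824 ± 0.204 in WT and 1.217 ± 0.118 in KO hearts, a difference of 0.56 (SE 0.23, adjusted p = 0.555), and 0.43 in the second columns. The Mpc2 ratio was 0.382 ± 0.0996 and 0.830 ± 0.433, a difference of 1.01 (SE 0.41, adjusted p = 0.555), and 0.74 in the second columns, on a mean of 25.6 disome counts. Ndufb2, a subunit of complex I, had ratios of 0.790, 0.631, 1.27 and 0.879 in WT and 1.53, 1.57, 0.916 and 2.05 in KO hearts, with KO 3 inside the WT range. The Ndufb2 difference was 0.74 (SE 0.31, adjusted p = 0.555) and 0.58 in the second columns, and DESeq2 called it with an adjusted p of 0.0422. Cyc1, cytochrome c1 of complex III, was lower, at -0.59 (SE 0.26, adjusted p = 0.555) and -0.54 in the second columns. Uqcrc2, a core subunit of complex III, differed by 0.38 (95% interval -0.06 to 0.83, and 0.26 in the second columns) and Uqcrc1, its partner, by 0.03 (-0.53 to 0.60). Mdh2, mitochondrial malate dehydrogenase, had a ratio of 2.16 ± 0.414 in WT and 1.82 ± 0.121 in KO hearts, a difference of -0.24 (-0.32 in the second columns). Lpl, lipoprotein lipase, had 0.613 ± 0.121 and 0.774 ± 0.156, a difference of 0.32 (0.24 in the second columns), and Fabp3, the heart fatty acid-binding protein, 1.56 ± 0.389 and 1.46 ± 0.279. Cox7b and Cox5a of complex IV differed by 0.15 (SE 0.26) and -0.10 (SE 0.24), and Cs, citrate synthase, by -0.03 (SE 0.17). Glycolysis and creatine kinase genes had a median of -0.18 over 10 genes, 8 of them negative (329 of all 632 genes), and of -0.22 over 9 genes in the second columns. Within that list Pygm, muscle glycogen phosphorylase, had the lowest difference among genes with counts of at least 100, -0.30 (SE 0.22), and Pgk1 the highest, 0.02 (SE 0.17).

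**Figure D4:**
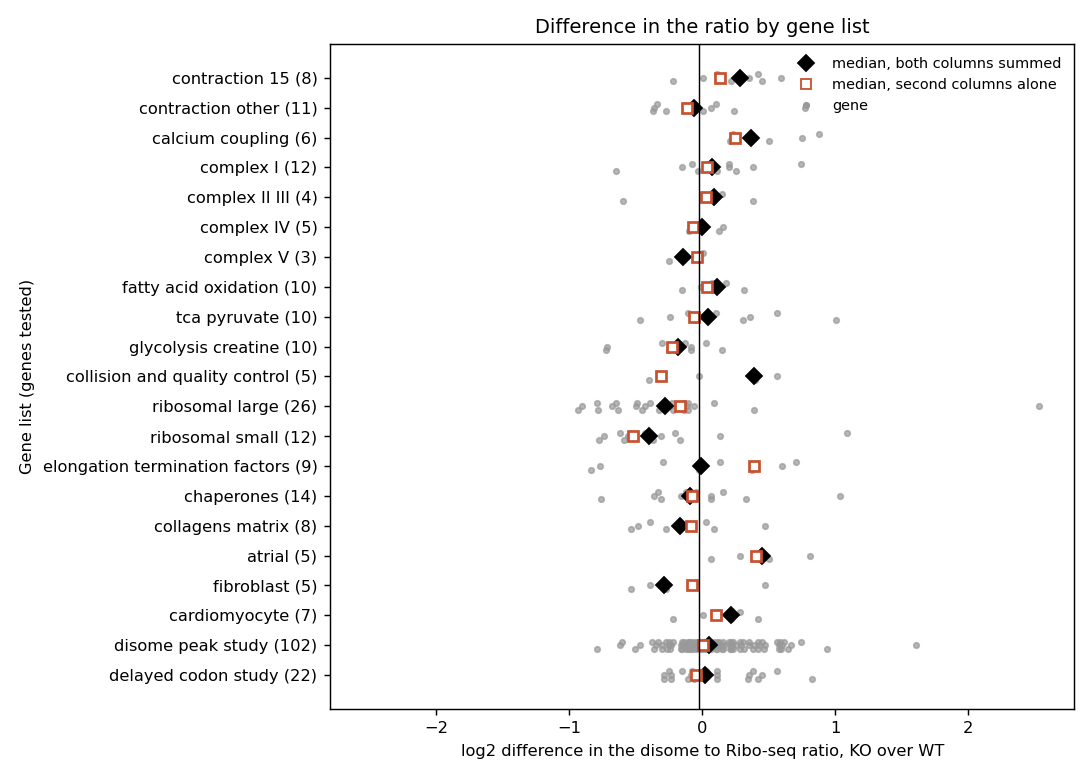
Grey points are the log2 differences of the ratio, KO over WT, of the tested genes of each list with at least 3 tested genes, black diamonds their medians with summed columns and open squares the medians over genes tested in the second columns alone. The vertical line is the median of all 632 genes, -0.03, and Scgb3a1 at 4.36, in the study's disome peak list, lies beyond the axis.

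Few genes of the machinery that senses collisions could be tested. Of 42 listed genes of collision sensing and ribosome quality control, 26 were among the plus-strand genes of the table and 5 reached the count limit. Map3k20, which encodes the stress kinase ZAK, had ratios of 0.45, 0.848, 0.809 and 1.65 in WT and 1.33, 0.866, 1.40 and 1.19 in KO hearts, a difference of 0.57 (SE 0.36, adjusted p = 0.659). WT hearts held both the lowest and the highest of these values. Edf1, which binds collided ribosomes, differed by -0.03 (SE 0.33), Rack1, the small-subunit protein at the collision interface, by -0.40 (SE 0.52), Usp9x, a deubiquitinase, by 0.40 (SE 0.40), and G3bp1, a stress granule protein, by 0.39 (SE 0.34). The 5 genes had a median of 0.39 with summed columns and, with 3 genes tested, of -0.31 in the second columns.

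Ribosomal protein genes lay on the negative side in the fitted differences, but their median ratios were not lower in KO hearts throughout. Of 26 tested large-subunit genes 23 had a negative difference, with a median of -0.28, and of 12 small-subunit genes 10 did, with a median of -0.40. Of all 632 genes 329 were negative. None passed the threshold, with 1 unadjusted p under 0.05 in each direction among the large-subunit genes and 0 among the small-subunit genes. In the disomes alone the medians were -0.34 and -0.39, and in Ribo-seq alone they were -0.03 and -0.01. These are genes of many near-identical copies. Their median ratio in WT hearts was 1.89 and 1.87 with summed columns and 1.29 and 1.19 in the second columns, so that it moved with the columns used. In KO hearts the median ratio was 1.88 and 1.98 with summed columns and 1.37 and 1.40 in the second columns. In the second columns 9 and 3 genes were tested, with medians of -0.17 and -0.52. Rpl3l itself had the largest difference in these lists, 2.53 (SE 0.89, adjusted p = 0.471), since its Ribo-seq counts nearly vanished in KO hearts while its disome counts in KO mice 1 to 4 were 0, 4, 6 and 14. Without KO 4, whose first column held 12 Rpl3l disome counts, the Rpl3l difference was 1.52 (adjusted p = 0.589), and without KO 1 it was 3.48 (adjusted p = 0.198). Eef2, the elongation factor that moves the ribosome along, had ratios of 1.62, 1.87, 1.12 and 2.01 in WT and 0.935, 0.78, 0.966 and 1.25 in KO hearts, and only KO 4 reached the WT range. The Eef2 difference was -0.83 (SE 0.46, adjusted p = 0.635), and -0.86 (SE 0.50, adjusted p = 0.662) in the second columns. Among 14 chaperones the median was -0.09, and Hspa8 and Hspb1, the genes with counts of at least 100, differed by -0.16 (SE 0.22) and -0.05 (SE 0.24).

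The genes nearest to the threshold had few disomes. On the higher side, Cluh, which encodes an RNA-binding protein for mRNAs of mitochondrial proteins, had 13, 6, 10 and 6 disome counts in WT and 43, 20, 12 and 12 in KO mice. Its ratio was 0.189, 0.31, 0.22 and 0.34 in WT and 0.484, 0.423, 0.473 and 0.609 in KO hearts, with every KO heart above every WT heart, as was true of 2.37% of all genes. The Cluh difference was 1.03 (SE 0.25, adjusted p = 0.257). Psme4, a proteasome activator, had ratios of 0.213 ± 0.0527 in WT and 0.474 ± 0.0394 in KO hearts, also without overlap (1.06, SE 0.26, adjusted p = 0.257). Nqo2, a quinone reductase, had 2.12 ± 0.404 and 4.42 ± 0.645 (1.19, SE 0.32, adjusted p = 0.313). Ogn, the matrix proteoglycan osteoglycin, and Rab18, a small GTPase of lipid droplets, differed by 0.96 (SE 0.29) and 1.11 (SE 0.33). None of these 5 genes had a mean count of at least 10 in the second columns alone, so that they could not be followed there. Without KO 1, Psme4 and Rab18 fell below the count limit and were not tested. Cluh and Nqo2 were among the 9 genes called by DESeq2, with adjusted p of 0.0422 and 0.0240.

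On the lower side the gene with the most counts was Gnas, which encodes the stimulatory G protein α subunit. Gnas had 111, 39, 73 and 38 disome counts in WT and 80, 31, 25 and 26 in KO mice, from 1653 to 3451 Ribo-seq counts, and ratios of 0.675, 0.821, 0.666 and 0.864 in WT and 0.404, 0.311, 0.511 and 0.547 in KO hearts. Every KO heart lay below every WT heart, as was true of 0.949% of all genes. The Gnas difference was -0.79 (SE 0.24, adjusted p = 0.365), and -0.87 (SE 0.24, adjusted p = 0.482) in the second columns, where it had the smallest p. In the disomes alone Gnas differed by -0.76 and in Ribo-seq alone by 0.02. DESeq2 called it with an adjusted p of 0.00569. Cope, a subunit of the COPI vesicle coat, had ratios of 0.862 ± 0.0606 and 0.495 ± 0.111 (-0.90, SE 0.26, adjusted p = 0.365) on a mean of 10.8 disome counts. Hist1h2bc, Fscn1 and Mybbp1a completed the 5 of lowest p on that side, at -1.29, -1.57 and -1.07, and in each of them WT 1 had the highest ratio of all 8 hearts. Without WT 1, Cope, Fscn1 and Mybbp1a fell below the count limit and were not tested, and Hist1h2bc was at -0.93 (edgeR adjusted p = 0.707). With the second column alone for WT 1, Cope, Hist1h2bc, Fscn1 and Mybbp1a all fell below the limit. They thus entered the comparison through counts of the genotype in which they were higher.

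The study reported more disome reads in KO hearts within the regions of its disome peaks. The ratio here counts reads per transcript and is scaled to library totals, so it does not measure those regions or single codons. By this ratio the study's own lists, chosen on these samples, had medians near that of all genes, -0.03. Gene symbols in its lists were counted once each, and these counts are not the sizes of the groups that the study compared. Of 214 symbols with a located disome peak, 102 were tested, with a median difference of 0.05 and 58 positive, against 303 of all 632 genes. At an unadjusted p under 0.05, 6 were higher and 1 lower, against 4.27% of all genes in each direction. The second columns gave a median of 0.01 over 100 genes, 50 of them positive. Of 45 symbols with a codon at which elongation was slower in KO hearts by the study's analysis of these Ribo-seq libraries, 22 were tested, with a median of 0.02 (20 genes and -0.04 in the second columns). In that list 2 genes were higher and 0 lower at an unadjusted p under 0.05, and 3 of the 22, Csnk2a1, Glul and Mpc1, had every KO heart above every WT heart, against 2.37% of all genes. These 3 were named after their values were seen, at differences of 0.83 (SE 0.27), 0.42 (SE 0.24) and 0.56 (SE 0.23). Lgals1, a galectin, had the lowest difference among disome peak genes with counts of at least 100, -0.62 (SE 0.53), with ratios of 11.1, 2.87, 2.31 and 9.22 in WT hearts that were highest in WT 1 and WT 4.

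Each assay was also compared on its own. In disomes 0 of 632 genes (0.0%) passed the threshold and 21 (3.32%) had an unadjusted p under 0.05, of which 14 (2.22%) were higher and 7 (1.11%) lower in KO mice (17 by DESeq2, which called 0). In Ribo-seq 62 genes did, 25 higher and 37 lower in KO hearts (9.81%, 3.96% and 5.85% of those tested), and DESeq2 called 70. That count was not stable, since leaving out any 1 of the 8 hearts left between 0 and 23 genes. Among the genes named here, Rpl3l (-4.69) and Rab18 (-0.37, adjusted p = 0.0388) were lower and Mdh2 (0.23, adjusted p = 0.0391), Hspb1 (0.43, adjusted p = 0.0388) and Hist1h2bc (0.47, adjusted p = 0.0399) were higher in KO monosomes.

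Monosome levels differed between genotypes by the GC content of the coding sequence, and disome levels overlapped. The 632 genes were put into tertiles by the GC content of their coding sequence, from 38.4 to 49.9% in the low and from 54.6 to 69.9% in the high tertile. The median log2 difference of the ratio was 0.22 in the low tertile, -0.03 in the middle and -0.22 in the high tertile, with 148 of 211, 96 of 210 and 59 of 211 genes positive. In the second columns the medians were 0.19, -0.04 and -0.14. In Ribo-seq alone the tertiles moved the other way, by -0.18, 0.00 and 0.16, and in disomes alone by 0.03, -0.02 and -0.07. Per heart, the mean log2 Ribo-seq level of the high tertile exceeded that of the low tertile by 0.07, 0.10, -0.02 and 0.08 in WT and by 0.39, 0.44, 0.34 and 0.34 in KO hearts, with no overlap. The same gap in disomes was 0.53, 0.23, 0.03 and 0.40 in WT and 0.13, 0.23, 0.39 and 0.43 in KO mice, and the means were 0.30 ± 0.216 and 0.30 ± 0.143 (SD, n = 4). These per-heart gaps are a description, chosen after earlier results were known, and no test was made of them. GC content and the share of proline and alanine codons were related across genes (Spearman rho 0.463), and tertiles by that share gave medians of 0.14, -0.03 and -0.13. In the second columns these medians were 0.12, -0.04 and -0.05. In Ribo-seq alone the tertiles by that share moved by -0.10, -0.01 and 0.10, and in disomes alone by 0.01, -0.02 and -0.03. Coding length ordered the level of the ratio in both genotypes alike, from a median of 1.67 in WT and 1.74 in KO hearts for the shortest tertile to 1.01 and 0.945 for the longest. Whether the GC pattern in Ribo-seq came from the cells or from library preparation was not tested.

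**Figure D5:**
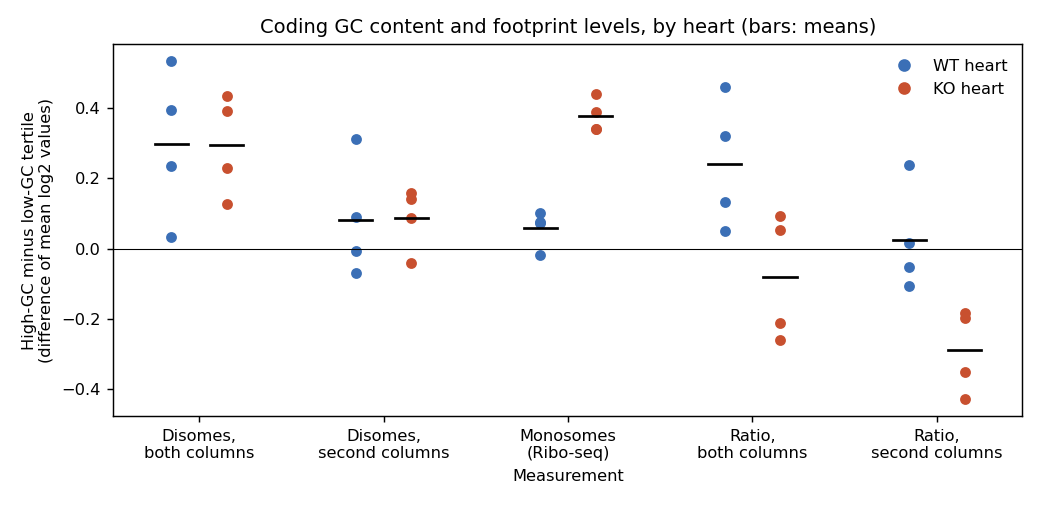
For each heart, the mean log2 level of genes in the high-GC tertile minus that in the low-GC tertile, in disomes, in monosomes and in their ratio, for both columns summed and for the second columns, with bars at the genotype means. KO and WT hearts overlap in the disomes and do not overlap in the monosomes (WT -0.02 to 0.10, KO 0.34 to 0.44).

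Airway markers varied between hearts, and did so in the disome and the Ribo-seq library of the same number. Of 11 airway markers 8 were in the table, and together they had 0, 29, 0 and 6 disome counts in WT mice 1 to 4 and 422, 344, 1 and 2 in KO mice 1 to 4, beside 19, 2763, 47 and 618 and 4998, 8162, 2 and 14 Ribo-seq counts. Airway signal was thus high in KO 1 and KO 2, lower in WT 2 and WT 4, and near 0 in the remaining mice in both assays, and Scgb3a1 and Bpifa1, secreted airway proteins, were the 2 of these genes that reached the count limit. Their ratio differences of 4.36 (SE 4.08) and 1.61 (SE 2.85) rested on those hearts. Cardiomyocyte markers, 7 of 15 in the table, held 59870 to 88090 disome CPM in WT and 78070 to 92700 in KO mice, lowest in WT 1. Their second-column levels were 80920 to 95220 and 93120 to 99340 CPM, with WT 1 the highest and WT 4 the lowest WT mouse. Blood markers had 1122 to 2893 disome CPM in WT and 2291 to 6134 in KO mice, and fibroblast markers 2849 to 4229 and 3035 to 4530. Endothelial markers had 215.8 to 750.0 disome CPM in WT and 314.4 to 946.6 in KO mice, beside 1740 to 1933 and 1427 to 1921 Ribo-seq CPM. In these whole-heart libraries a change in the number of cells of a type and a change in RNA per cell cannot be told apart. The part of these cells in any difference of the ratio was not tested.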

How the data were processed

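Hearts of 4 WT and 4 KO mice were profiled in each of Disome-seq and Ribo-seq. Per the study's methods and the labels, the authors trimmed adaptors with cutadapt, discarded low-quality and rRNA reads, used STAR to align the rest against GRCm38.p6 transcripts and the mm10 genome with multiple mappings allowed, collapsed duplicates by molecular identifier, and deposited raw read counts per transcript from featureCounts. Tool versions are not given in the sources used here, nor is the strandedness of counting. A read could count for several transcripts or gene copies. The table's 47754 lines held 23877 transcripts, each on 2 identical lines, of which 1 was kept. Of these, 23662 matched GENCODE M21 (GRCm38), all on the plus strand, so minus-strand genes such as Rpl3 were not analysed here, and 0 mitochondrially encoded genes were in the table. 7 unmatched transcripts with a mean disome count of at least 10 were left out.

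The disome columns of a mouse were summed, and each gene was represented by its transcript with the highest mean CPM over the 16 summed libraries. KO and WT ratios were tested in edgeR 4.0.16 (R 4.3.3) with a quasi-likelihood interaction of genotype and assay, two-sided, with TMM within each assay, genes of a mean of 10 or more counts in both assays, and Benjamini-Hochberg adjustment over every gene tested. DESeq2 1.42.0 was an alternative. The edgeR fit was tested on simulated data and the DESeq2 fit was not. Printed ratios divide TMM-normalised CPM, and log2 levels used a prior count of 2. The p-values of the ratio measure the spread between libraries of a group, and the fit treats the disome and Ribo-seq libraries of 1 number as independent. The labels do not say that libraries of 1 number share a heart. Deviations from group means correlated in all 8 same-numbered pairs of disome and Ribo-seq libraries (r = 0.181 to 0.459). Pairs of different numbers within a genotype overlapped that range (r = -0.418 to 0.312). Within its genotype each of the 8 disome libraries correlated best with the Ribo-seq library of its own number, so the printed ratios divide libraries of the same number. The printed differences, SE, intervals and p-values come from the fit without heart as a block, and the fit with that block was an alternative (smallest adjusted p 0.802 against 0.257). WT and KO libraries of a number did not pair (r = -0.376 to 0.212 in disomes). Nothing in the labels says how the 2 columns of a mouse differ.

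Named genes were Rpl3l, the 5 of smallest p in each direction (since fewer than 5 passed), the 5 with the highest mean disome CPM, the tested genes of the contraction and collision lists, and the largest and smallest difference of each other list among genes with a mean disome count of at least 100. The genes, lists and rules were chosen with earlier results of these data known. Alternatives were other tools, scaling, filters, transcripts, columns, blocks and the omission of each mouse.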

Additional observations from a re-analysis of the deposited data

Results flagged for a closer look

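In groups of 4 hearts, 6 of 94 groups of values held a heart far from the other 3, and chance alone gives about 1 in 20. Psme4 had a ratio of 0.291 in WT 1 against 0.176 to 0.193 in the other WT hearts. Hist1h2bc had 3.06 in KO 4 against 1.72 to 1.93. Mybpc3 had 0.798 in KO 4 against 0.958 to 0.985. Trdn had 6.52 in WT 2 against 3.03 to 3.44. Pygm had 1.23 in KO 2 against 0.841 to 0.870. Hspa8 had 2.42 in WT 4 against 1.80 to 1.86.

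The first disome column of WT 1 held 5.109% of its counts in the 126 myoblast-high genes, above the highest value of 0.102% in heart Ribo-seq. The genes were defined on C2C12 and heart Ribo-seq libraries, and the heart libraries are also the denominator of the ratio, so that the high ratios of these genes are in part fixed by the definition.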

How the results depend on the processing

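The count of 0 genes past the threshold in the ratio held under every alternative run but DESeq2, which called 9 genes, and leaving out each mouse in turn gave 0. Blocking by heart changed no call in the ratio, and the fit with WT and KO mice of a number as a replicate block gave 0 as well. In disomes alone the count was 2 without the count filter (Bpifa1 and Scgb3a1) and 1 (Scgb3a1) with the second columns alone and with the replicate block, and leaving out each mouse gave 0 to 1. In Ribo-seq alone it was 17 without the filter, 9 at a mean count of at least 50, 110 over all transcripts and 1 with the replicate block, and leaving out each mouse gave 0 to 23. The log2 difference of disome totals was -0.022 in the first columns. The cause of these changes was not tested. No row on the mitochondrial chromosome was present, so leaving those genes out was not run.

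Of the 46 named genes, 16 changed sign under an alternative, in 68 of 861 values, and 5 (Cluh, Nqo2, Gnas, Hist1h2bc and Fscn1) passed the threshold under DESeq2. The values that follow are log2 differences of the ratio. With DESeq2, Atp5a1 was -0.011, Myl3 was -0.015. With all transcripts, Atp5a1 was -0.063, Myl3 was -0.059, Uqcrc1 was -0.039, Pgk1 was -0.051. With second columns alone, Atp5a1 was -0.041, Myl3 was -0.044, Myom2 was -0.0044, Uqcrc1 was -0.033, Pgk1 was -0.036. With second column alone for WT mouse 1, Atp5a1 was -0.14, Myl3 was -0.14, Hadhb was -0.064, Tnnt2 was -0.063, Myom2 was -0.10, Uqcrc1 was -0.11, Cox7b was -0.036, Pgk1 was -0.016, Rack1 was 0.067, Lgals1 was 0.028. With second columns alone with heart as a replicate block, Atp5a1 was -0.044, Myl3 was -0.048, Myom2 was -0.022, Uqcrc1 was -0.026, Pgk1 was -0.024. With no filter beyond a total of 10 counts, Myl3 was -0.0064. With library totals in place of TMM, Cs was 0.021, Edf1 was 0.0016. With first columns alone, Cs was 0.027, Edf1 was 0.17. With heart as a replicate block, Edf1 was 0.011. Leaving out each mouse in turn gave Atp5a1 -0.10 to 0.080, Myl3 -0.12 to 0.17, Hadhb -0.00096 to 0.18, Tnnt2 -0.056 to 0.21, Myom2 -0.086 to 0.24, Uqcrc1 -0.12 to 0.25, Cox7b -0.065 to 0.37, Cox5a -0.30 to 0.019, Fabp3 -0.28 to 0.062, Cs -0.15 to 0.064, Pgk1 -0.10 to 0.10, Edf1 -0.26 to 0.19, Hspb1 -0.15 to 0.11 and Nppa -0.091 to 0.56. The alternatives that used the second column alone for WT mouse 1, and the second columns with heart as a block, were chosen after seeing the data. Depth limits the disome counts far more than the Ribo-seq counts.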
